A study of Mus musculus with 4 samples.

Results

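Integrins are paired α and β chains in the plasma membrane that bind proteins of the extracellular matrix or of neighbouring cells, and their short tails connect to actin through talin, kindlin and the other proteins of the focal adhesion plaque. The α chain largely sets which ligand is bound, and the common β1 chain pairs with most α chains of myoblasts. In skeletal muscle the laminin-binding α7 chain joins fibres to the basement membrane, and myoblasts carry both laminin-binding and fibronectin-binding chains. The genes described here were chosen by symbol: all 18 integrin α genes, all 8 integrin β genes, 7 genes for matrix or cell-surface ligands, and 11 genes for focal adhesion proteins. These are 44 of the 49585 genes counted, and 35 of them had enough counts to be tested.

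Messenger RNA was sequenced from proliferating C2C12 cells, a mouse myoblast line from strain C3H. In 2 libraries (C/EBPβ) the leucine-zipper transcription factor C/EBPβ was overexpressed from a retrovirus, and in 2 libraries (empty vector) the cells carried pLXSN without an insert. All cells were selected with 1200 μg/ml G418 for 7 days, kept as pooled stable cells and grown for a further 48 hours, and the line's medium held 10% fetal bovine serum. Whether replicates of a group were separate transductions or cultures is not stated in the labels. The p-values therefore cover only the variation among these libraries, which may be technical. The libraries held 38656497 and 92027838 counts with C/EBPβ and 40912955 and 37566321 with empty vector.

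Cebpb itself stood at 483 and 473 CPM in C/EBPβ libraries, against 85 and 76.8 CPM in empty vector libraries; CPM are counts relative to the library total, scaled by the TMM factors of edgeR. The myoblast markers Myod1, Myf5 and Des were detected in every library, and Des stood at 855 and 919 CPM with C/EBPβ and 1296 and 1335 CPM with empty vector. Of 13 leukocyte and platelet markers, 10 had too few counts to test, Tyrobp, Cd3e, Adgre1 and Gp9 had 0 counts in all libraries and Ptprc had at most 2. Of the 3 that could be tested, Gp1bb and Csf1r were higher with C/EBPβ (log2 fold changes of 0.84 and 1.33) and Cd68 did not pass (0.33); the list summed to 16 and 13.8 CPM with C/EBPβ and 10.2 and 9.16 CPM with empty vector. The 8 endothelial markers summed to 0.569 and 0.739 CPM with C/EBPβ and 0.562 and 0.453 CPM with empty vector, and Kdr, the single marker tested, did not pass. In bulk RNA, fewer cells of a type and less RNA per cell cannot be told apart.

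C/EBPβ myoblasts had less RNA for the 3 laminin-binding α chains and more RNA for the fibronectin receptor chain Itga5 and for the collagen receptor chains Itga1 and Itga11. The abundant β chain Itgb1 and most structural proteins of the focal adhesion did not pass the test, as was so for most genes tested. Of the 35 tested genes 6 were higher and 9 lower with C/EBPβ at an adjusted p below 0.05, by edgeR with its quasi-likelihood test and Benjamini-Hochberg correction across all 15078 tested genes, and every adjusted p below comes from this test unless another is named. These 15 calls are 42.9% of the 35 tested genes, beside 24.9% called among all genes tested, and whether the shares differ was not tested. By direction, 14.1% of all tested genes were higher and 10.8% lower. The median log2 fold change (C/EBPβ over empty vector) of the 35 genes was -0.01, beside 0.00 over all genes tested. By role, 8 of 11 tested α chains passed, as did 2 of 8 β chains, 2 of 5 tested ligands and 3 of 11 focal adhesion genes. Itga1 and Itga11 would not have met the filter on low counts without the C/EBPβ libraries, nor Itga4 without the empty vector libraries. A call was thus likely for each once tested, and the α-chain count and the 42.9% carry that limit. The number of higher genes was 10 without C/EBPβ replicate 2 and 12 with no filter on low counts.

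**Figure D1:**
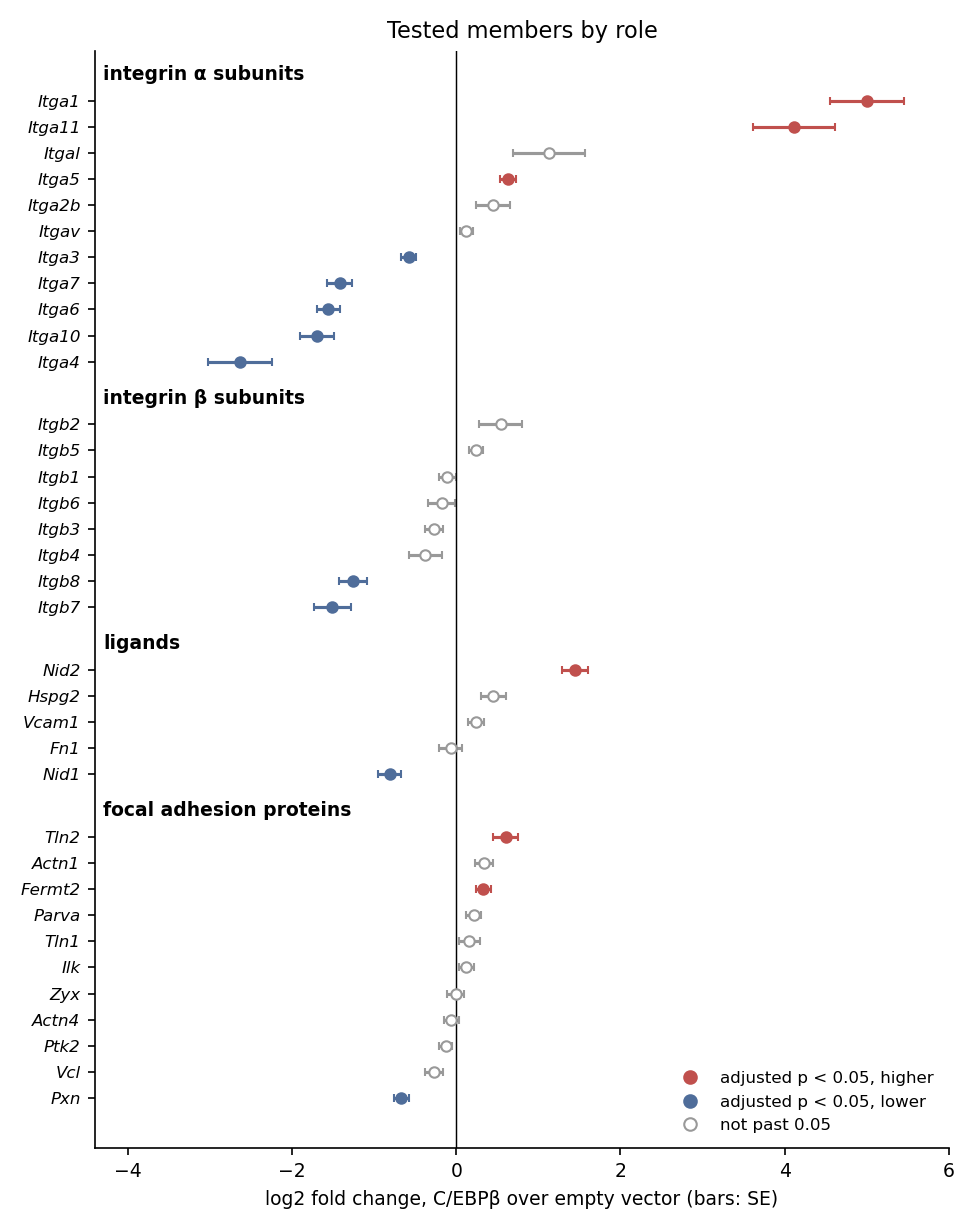
Log2 fold change (C/EBPβ over empty vector) on the horizontal axis for the 35 tested genes, by role, with bars of 1 standard error. Filled points passed an adjusted p of 0.05 (6 higher, 9 lower), open points did not, and the values run from -2.64 for Itga4 to 5.00 for Itga1.

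The laminin-binding α chains Itga3, Itga6 and Itga7 were all lower with C/EBPβ. Itga7, the chain that anchors muscle cells to laminin, had 241 and 326 CPM in C/EBPβ libraries, against 692 and 825 CPM in empty vector libraries. Both C/EBPβ libraries lay below both controls by a wide margin. Its log2 fold change was -1.42 (SE 0.15, adjusted p = 3.92e-04), which is a 2.67-fold lower level. In GRCm38 the gene occupies bases 128933813 to 128958277 of chromosome 10 (plus strand). Itga6, which pairs with β1 or β4 to bind laminin, had 34.5 and 46.6 CPM with C/EBPβ and 113 and 127 CPM with empty vector (log2 fold change -1.56, SE 0.14, adjusted p = 1.57e-04). Itga3, a further laminin receptor chain, had 170.2 and 194 CPM with C/EBPβ and 266 and 278 CPM with empty vector (-0.58, SE 0.09, adjusted p = 0.00271). The groups did not overlap for any of the 3 genes, as they did not for 66.2% of all genes tested. The fall of Itga3 was the smallest of the 3. Markers of the muscle lineage moved as well: Cdh15, a myoblast cadherin, had a log2 fold change of -1.25 and Chrna1, an acetylcholine receptor subunit, of -0.74, while Pax7 had 0.94 and Myf5 0.60. All 8 markers of the myoblast list passed the test, 5 lower and 3 higher, beside 24.9% called among all genes tested, and their summed level was 1911 and 2106 CPM with C/EBPβ and 2855 and 3021 CPM with empty vector; their part in the integrin values was not tested.

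Among the 4 collagen-binding α chains, Itga1 and Itga11 rose from near the limit of detection, Itga10 fell and Itga2 was not detected. Itga1, a receptor chain for basement membrane and fibrillar collagens, had 16.1 and 7.84 CPM with C/EBPβ and 0.486 and 0.238 CPM with empty vector. Its counts were 616 and 720 against 20 and 9, so the control level rests on few reads. The log2 fold change of Itga1 was 5.00 (SE 0.45, adjusted p = 1.66e-04), the largest among the 35 tested genes. It was 4.41 without C/EBPβ replicate 1 and 5.62 without empty vector replicate 1. Itga11, a receptor chain for fibrillar collagen in mesenchymal cells, had 7.13 and 3.31 CPM with C/EBPβ and 0.413 and 0.159 CPM with empty vector (4.12, SE 0.50, adjusted p = 6.65e-04). Its value was 3.50 without C/EBPβ replicate 1 and 4.98 without empty vector replicate 1, which left a control of 6 counts. For both genes C/EBPβ replicate 1 was above replicate 2, and both were far above the controls. Itga10, the collagen receptor chain known from cartilage, went the other way, with 1.36 and 1.95 CPM with C/EBPβ and 5.4 and 5.66 CPM with empty vector (-1.70, SE 0.21, adjusted p = 6.44e-04). Exons of another gene on the same strand cover 33.5% of the exonic length of Itga10, and reads in that part were not counted. Itga2 had 0 counts in every library, and a floor of 3 counts equals between 0.0326 and 0.0799 CPM, depending on the library. It is the neighbour of Itga1 on chromosome 13, from 114835916 to 114932041, while Itga1 spans 114958079 to 115101964, both on the minus strand.

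Because Itga1 moved most, the 250 bases before its start are shown, with those of Itga4, the chain that fell most, and of Nid1, the ligand that fell. They are RefSeq sequences of build GRCm38.p6, read 5′ to 3′ on the gene's strand, from chr13:115101965-115102214 (minus), chr2:79255176-79255425 (plus) and chr13:13437352-13437601 (plus). Capitals mark matches to TTGCNNAA, a motif of the kind bound by C/EBP proteins, or to CAGCTG, an E-box of the kind bound by myogenic factors, searched on both strands; the 2 motifs do not overlap in these windows.
Itga1: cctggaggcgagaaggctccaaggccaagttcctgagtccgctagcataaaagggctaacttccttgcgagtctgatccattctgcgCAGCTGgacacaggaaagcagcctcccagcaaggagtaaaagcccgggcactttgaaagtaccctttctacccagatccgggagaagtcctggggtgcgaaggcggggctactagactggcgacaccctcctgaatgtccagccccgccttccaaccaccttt
Itga4: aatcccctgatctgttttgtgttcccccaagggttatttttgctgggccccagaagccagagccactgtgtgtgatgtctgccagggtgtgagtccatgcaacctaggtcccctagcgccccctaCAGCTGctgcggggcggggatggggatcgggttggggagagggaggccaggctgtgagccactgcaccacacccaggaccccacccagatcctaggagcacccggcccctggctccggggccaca
Nid1: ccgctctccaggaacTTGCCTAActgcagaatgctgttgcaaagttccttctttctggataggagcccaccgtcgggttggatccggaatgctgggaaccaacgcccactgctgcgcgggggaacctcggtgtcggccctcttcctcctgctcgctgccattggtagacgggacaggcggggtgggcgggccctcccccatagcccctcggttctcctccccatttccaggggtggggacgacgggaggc
The Itga1 window holds CAGCTG starting 163 bases before the start and no TTGCNNAA. The Itga4 window holds CAGCTG at 125 bases, and the Nid1 window holds a TTGCNNAA match at 235 bases. The sequences at hand covered 32 start sites of 29 of the 44 genes. TTGCNNAA was present in 2 of these 32 windows (6.25%), those of Nid1 and Actn1, beside 9.56% of all 32851 promoter windows of the same length. CAGCTG was present in 5 (15.6%), beside 13% of all. A match is a description of letters and was not linked to binding.

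Of the α chains that recognise the Arg-Gly-Asp (RGD) sequence of fibronectin and related ligands, Itga5 rose and Itgav did not pass the test. Itga5, the classical fibronectin receptor chain, had 476 and 409 CPM with C/EBPβ and 276 and 297 CPM with empty vector. The groups were clearly separate, with a log2 fold change of 0.63 (SE 0.10, adjusted p = 0.00308). Itgav, the shared α chain of the vitronectin-type receptors, had 238 and 229.7 CPM with C/EBPβ and 210.1 and 219 CPM with empty vector (0.12, SE 0.08, adjusted p = 0.313). Itga2b, best known as the platelet fibrinogen receptor chain, was low in all libraries, at 3.22 and 2.55 CPM with C/EBPβ and 1.9 and 2.27 CPM with empty vector (0.45, SE 0.21, adjusted p = 0.165). Itga8 had 7 and 40 counts with C/EBPβ and 5 and 0 with empty vector, too few for the test.

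Itga4, which binds VCAM-1 and a splice form of fibronectin, was low in controls and lower with C/EBPβ. It had 5 and 41 counts, or 0.131 and 0.446 CPM, in C/EBPβ libraries, against 82 and 83 counts, or 1.99 and 2.19 CPM, in empty vector libraries. The log2 fold change of Itga4 was -2.64 (SE 0.39, adjusted p = 0.00174). Leaving out C/EBPβ replicate 2 moved it to -3.96. Its relative Itga9, a receptor chain for tenascin-C and VCAM-1, had 15 and 14 counts with C/EBPβ and 1 and 0 with empty vector. That is a ratio of 17.4 per library total, with a 95% counting interval of 2.89 to 711, which covers counting error only. Of the 5 leukocyte α chains, Itgam and Itgad had 0 counts throughout, Itgax had 1 and 1 with C/EBPβ and 0 and 0 with empty vector, and Itgae had 8 and 23 against 8 and 6. Exons of another gene on the same strand cover 68.7% of the exonic length of Itgam, so its 0 counts describe the rest of the gene. Itgal, the leukocyte chain that binds ICAM-1, was tested at 0.996 and 0.544 CPM with C/EBPβ and 0.243 and 0.423 CPM with empty vector and did not pass (1.13, SE 0.44, adjusted p = 0.0971). With C/EBPβ replicate 2 left out the log2 fold change of Itgal was 1.58, and with C/EBPβ replicate 1 left out it was 0.72.

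**Figure D2:**
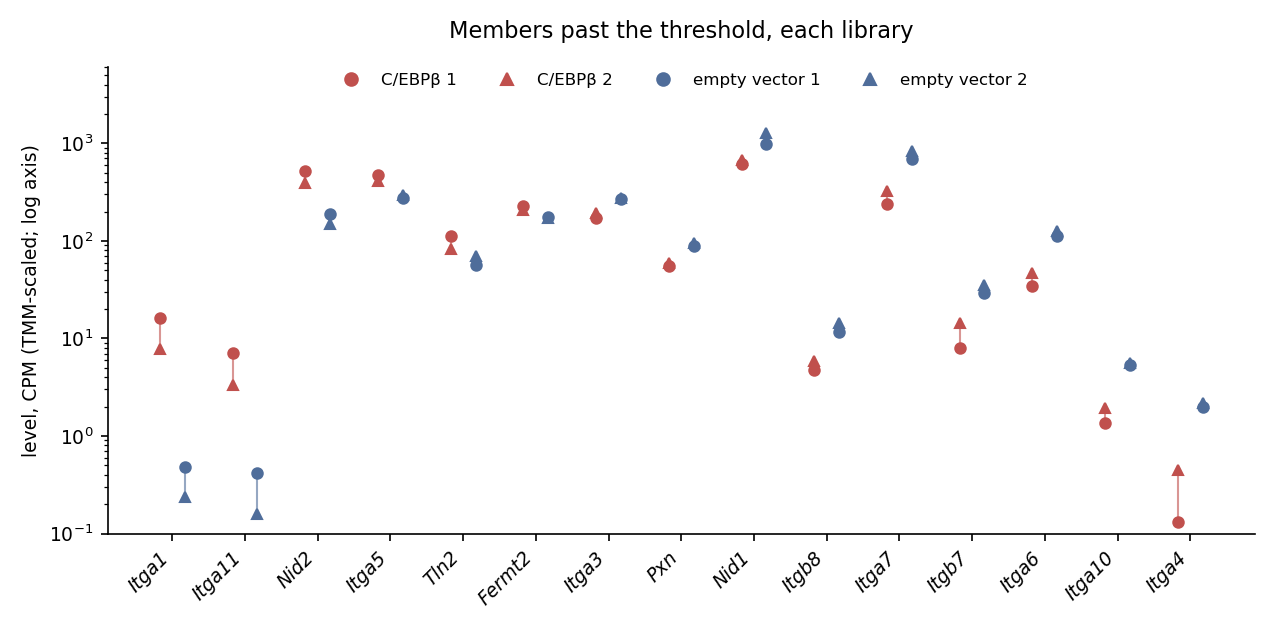
CPM (log axis) in each of the 4 libraries for the 15 genes that passed the test, ordered by log2 fold change, with C/EBPβ libraries left and empty vector libraries right, circles for replicate 1 and triangles for replicate 2. The groups are separate for each gene, as they are for 66.2% of all genes tested. C/EBPβ replicate 2 lies nearer to the controls than replicate 1 in 15 of 15, beside 83.6% of all genes called.

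To set the α chains against each other, counts were divided by exonic length and scaled to the same sum in each library (TPM, a level per length). In empty vector libraries Itga7 was the most abundant α chain, at 544 and 691 TPM, followed by Itga5 at 196 and 225 TPM and Itga3 at 147 and 163 TPM. With C/EBPβ Itga5 led, at 351 and 303 TPM, ahead of Itga7 at 197 and 268 TPM and Itga3 at 97.7 and 112 TPM. The libraries of these neighbours in each order did not overlap; these orders were not tested. Itgav followed at 72.4 and 70.5 TPM with C/EBPβ and 61.8 and 68.4 TPM with empty vector. Laminin-binding chains together made up 41.1% and 50.8% of all α-chain TPM with C/EBPβ, against 73.5% and 75.1% with empty vector. RGD-binding chains made up 56.9% and 48.1% with C/EBPβ and 26% and 24.5% with empty vector. In TPM they summed to 425 and 376 with C/EBPβ and 259 and 295 with empty vector. The laminin-binding sum was 307 and 397 TPM with C/EBPβ and 731 and 901 TPM with empty vector, so the shares reflect both changes. Collagen-binding chains remained a small part, at 1.91% and 0.984% with C/EBPβ and 0.382% and 0.325% with empty vector. These shares separate the groups without overlap; an exact permutation test of 2 against 2 libraries cannot go below 0.333, so none is given. Summed over all 18 genes, α chains stood at 747 and 781 TPM with C/EBPβ and 995 and 1201 TPM with empty vector.

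**Figure D3:**
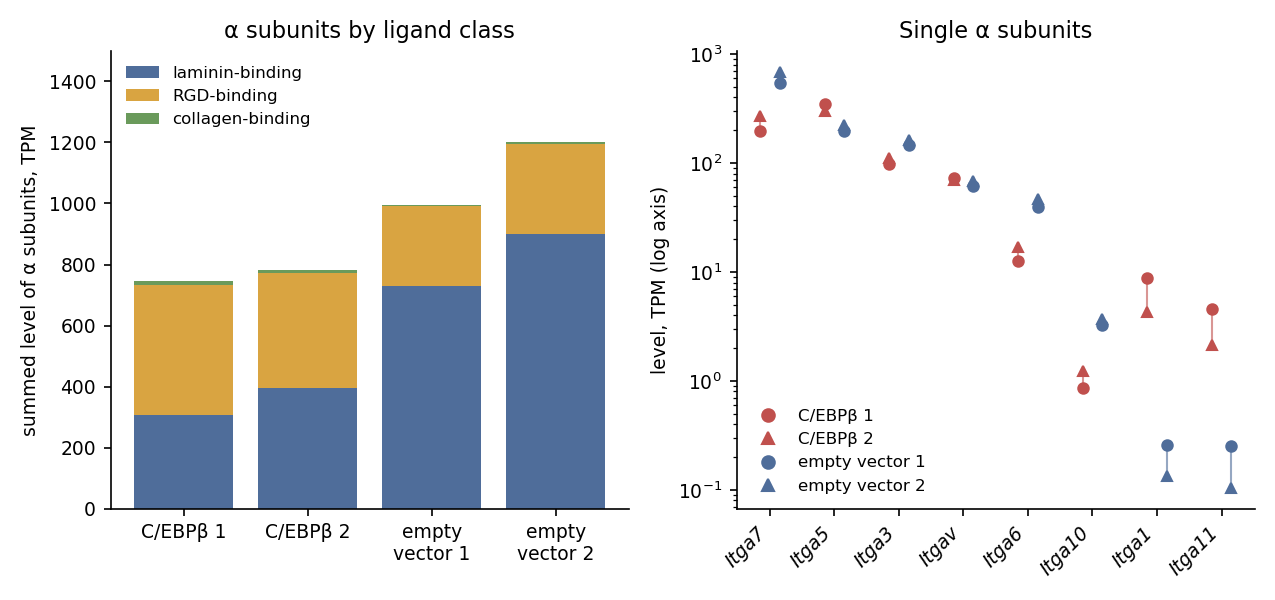
Left, summed TPM of laminin-binding, RGD-binding and collagen-binding α chains in each library; the laminin-binding part is 307 and 397 TPM with C/EBPβ and 731 and 901 TPM with empty vector. Right, TPM (log axis) of 8 α chains in each library, where Itga7 leads with empty vector and Itga5 with C/EBPβ.

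All 8 β chains were tested, and 2 of them passed, both lower with C/EBPβ; this is 25% of the 8, beside 24.9% called among all genes tested. Of the 6 that did not pass, Itgb5 and Itgb2 had positive and the others negative log2 fold changes. Itgb1, which pairs with the laminin- and collagen-binding α chains and with α5, had 1179.9 and 1193 CPM with C/EBPβ and 1261 and 1299.6 CPM with empty vector (log2 fold change -0.11, SE 0.10, adjusted p = 0.466). Per length it was the most abundant β chain, with 80.3% and 80% of all β-chain TPM with C/EBPβ and 80.7% and 81.1% with empty vector. Itgb5, a partner of αv, had 184 and 183 CPM with C/EBPβ and 164 and 147 CPM with empty vector (0.24, SE 0.09, adjusted p = 0.0791). Its log2 fold change was 0.32 without empty vector replicate 1 and 0.16 without empty vector replicate 2. Itgb3, the partner of αv and αIIb, had 66.7 and 64.3 CPM with C/EBPβ and 70.4 and 87 CPM with empty vector (-0.27, SE 0.11, adjusted p = 0.113). The value of Itgb3 was -0.41 without empty vector replicate 1 and -0.11 without empty vector replicate 2.

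The β chains that fell were Itgb7 and Itgb8. Itgb7, known from lymphocytes as a partner of α4 and αE, had 8.05 and 14.4 CPM with C/EBPβ and 29.3 and 35.7 CPM with empty vector (-1.51, SE 0.23, adjusted p = 0.00227). Per length Itgb7 stood at 33.8 and 43.8 TPM in empty vector libraries, where Itgb3 stood at 37.7 and 49.5 TPM, while α4 and αE were each below 1 TPM in every library. Of the leukocyte and platelet markers, Csf1r and Gp1bb were higher with C/EBPβ, Cd68 had 5.87 and 6.28 CPM with C/EBPβ and 4.94 and 4.73 CPM with empty vector, and Ptprc, Tyrobp and Cd3e were at or near 0 counts; their part in the Itgb7 values was not tested. Itgb8, an αv partner that binds latent TGF-β, had 4.77 and 5.9 CPM with C/EBPβ and 11.5 and 14.4 CPM with empty vector (-1.26, SE 0.17, adjusted p = 9.58e-04). Itgb2, Itgb4 and Itgb6 lay between 1.72 and 4.62 CPM in all libraries and did not pass, with log2 fold changes of 0.54, -0.38 and -0.18. With C/EBPβ replicate 1 left out Itgb2 had 0.80, and with C/EBPβ replicate 2 left out it had 0.13. Among 8 epithelial markers 3 could be tested, and these fell, beside 10.8% lower among all genes tested. Cldn4 and Cdh1 would not have met the filter on low counts without the empty vector libraries, so a fall was nearly fixed in advance for them. Krt14, Cldn4 and Cdh1 had log2 fold changes of -0.91, -1.96 and -2.75, while Epcam and Esrp1 had 0 counts. Cldn4 had 7 and 12 counts with C/EBPβ and 23 and 23 with empty vector. Cdh1 had 5 and 13 counts with C/EBPβ and 32 and 42 with empty vector, so both falls rest on few reads. The epithelial list summed to 11.8 and 10.1 CPM with C/EBPβ and 22.1 and 20.8 CPM with empty vector, and its part in the β-chain values was not tested.

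The nidogens, which link laminin to collagen IV in basement membranes, moved in opposite directions. Nid2 had 522 and 392 CPM with C/EBPβ and 188 and 148 CPM with empty vector, a log2 fold change of 1.45 (SE 0.16, adjusted p = 4.07e-04). Nid1 had 612 and 676 CPM with C/EBPβ and 981 and 1273 CPM with empty vector (-0.81, SE 0.14, adjusted p = 0.00342). Neither gene's groups overlapped, as was so for 66.2% of all genes tested. Per length, Nid1 stood above Nid2 by a wide margin in controls, and the 2 genes were closer with C/EBPβ, at 350.0 and 265 TPM for Nid2 and 331 and 368 TPM for Nid1, against 121 and 102 TPM for Nid2 and 512 and 707 TPM for Nid1 with empty vector.

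Fibronectin had the highest level per length of the 44 genes, at 1304 and 1101 TPM with C/EBPβ and 1114 and 1402 TPM with empty vector, and its difference did not pass the test. Fn1 had 4651 and 3904 CPM with C/EBPβ and 4121 and 4876 CPM with empty vector, and the groups overlapped (-0.07, SE 0.14, adjusted p = 0.762). Hspg2, which encodes the basement membrane proteoglycan perlecan, had 1001 and 803 CPM with C/EBPβ and 581 and 735 CPM with empty vector (0.45, SE 0.15, adjusted p = 0.0546). It missed the threshold narrowly, and passed with DESeq2 (adjusted p = 0.00672). The log2 fold change of Hspg2 was 0.60 without C/EBPβ replicate 2 and 0.63 without empty vector replicate 2. It was 0.29 without C/EBPβ replicate 1 and 0.29 without empty vector replicate 1. Vcam1, the cell-surface ligand of α4 and α9, had 149 and 179 CPM with C/EBPβ and 134 and 145 CPM with empty vector (0.24, SE 0.10, adjusted p = 0.139). Icam1, the ligand of leukocyte integrins, had 1 and 0 counts with C/EBPβ and 0 and 1 with empty vector. Vtn, which encodes the serum protein vitronectin, had 0 and 1 counts with C/EBPβ and 0 and 0 with empty vector.

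Within the focal adhesion the scaffold Pxn fell and the integrin activators Tln2 and Fermt2 rose, while 8 of 11 genes did not pass. The 3 calls are 27.3% of the 11 genes, close to the 24.9% called among all genes tested. Pxn, the adapter paxillin, had 55.8 and 59.3 CPM with C/EBPβ and 87.6 and 95.7 CPM with empty vector (-0.67, SE 0.09, adjusted p = 8.65e-04). Tln2, a talin prominent in striated muscle, had 111 and 81.6 CPM with C/EBPβ and 57.2 and 69.3 CPM with empty vector (0.60, SE 0.15, adjusted p = 0.0199). Fermt2, kindlin-2, had 228 and 207 CPM with C/EBPβ and 174 and 171 CPM with empty vector (0.33, SE 0.09, adjusted p = 0.0238). Both calls lay near the threshold, and neither was kept in every fit with a library left out, where a group has no replicate. In those fits the log2 fold change of Fermt2 lay between 0.26 and 0.40, and that of Tln2 between 0.37 and 0.81. Each was smallest without C/EBPβ replicate 1.

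Tln1, the ubiquitous talin, had 796 and 703 CPM with C/EBPβ and 602 and 744 CPM with empty vector, with overlapping groups (0.16, SE 0.13, adjusted p = 0.414). Vcl, vinculin, which binds talin and actin, had 599 and 586 CPM with C/EBPβ and 645 and 784 CPM with empty vector (-0.27, SE 0.11, adjusted p = 0.125). The value of Vcl was -0.41 without empty vector replicate 1 and -0.12 without empty vector replicate 2. The non-muscle actin crosslinker Actn1 had 994 and 857 CPM with C/EBPβ and 744 and 721 CPM with empty vector (0.34, SE 0.11, adjusted p = 0.052). Its call turned with the tool, since DESeq2 gave adjusted p = 0.0109. With a library left out its log2 fold change ran from 0.23 without C/EBPβ replicate 1 to 0.44 without C/EBPβ replicate 2. Actn4, the second non-muscle α-actinin, had 792 and 779 CPM with C/EBPβ and 818 and 814 CPM with empty vector (-0.06, SE 0.09). Zyx, zyxin, an actin-binding LIM protein, had 970.3 and 891 CPM with C/EBPβ and 941 and 928 CPM with empty vector (-0.01, SE 0.10). Ptk2, focal adhesion kinase, had 142 and 140.5 CPM with C/EBPβ and 147 and 161 CPM with empty vector (-0.13, SE 0.08). These proteins signal or crosslink at the plaque, and none of the 3 passed the test. Ilk, integrin-linked kinase, had 254 and 233 CPM with C/EBPβ and 230.1 and 219 CPM with empty vector (0.12, SE 0.09). Its partner Parva had 271 and 244 CPM with C/EBPβ and 226 and 220.1 CPM with empty vector (0.21, SE 0.09, adjusted p = 0.132).

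C/EBPβ replicate 2, the deepest library, lay nearer to the controls than replicate 1 for 15 of the 15 called genes, and for 83.6% of the 3759 genes called among all tested. Cebpb RNA differed little between the C/EBPβ libraries, as given above. Whether the level of C/EBPβ or the library depth had a part in this order of the replicates was not tested. Library values of the groups did not overlap for 32 of the 35 tested genes, beside 66.2% of all genes tested; the exceptions were Fn1, Tln1 and Zyx.

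Related genes of the same pathway were read from 4 lists. Of 39 tested adapters and signalling genes 5 were higher and 8 lower, 33.3% in all beside 24.9% of all genes tested (median log2 fold change -0.14). Arhgap26, a GTPase-activating protein that binds focal adhesion kinase, had 17.2 and 14 CPM with C/EBPβ and 0.802 and 1 CPM with empty vector (log2 fold change 4.11, SE 0.20, adjusted p = 7.32e-06). Apbb1ip, the RIAM adapter that brings talin to integrins, rose by 1.56, and Ptprf, a receptor phosphatase, by 0.75. On the same scale the kinase Src fell by 0.58, the GTPase Rhob by 0.53 and Git1, a paxillin-binding protein, by 0.44. Of 37 tested plaque and actin-linkage genes 8 were higher and 4 lower, 32.4% in all beside the same 24.9% (median 0.01), among them Enah (1.75), Palld (1.23) and Synpo2 (0.98), which bind actin or actin regulators, and Ezr (-0.92), Pdlim1 (-0.80) and Sorbs2 (-0.50).

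Of 15 surface partners 4 were higher and 3 lower, 46.7% in all beside 24.9% of all genes tested (median 0.02). Cav1, caveolin-1, had a log2 fold change of 1.28, the syndecan Sdc1 of 0.86 and Cd47, a partner of the β3 chain, of 0.53. The hyaluronan receptor Cd44 had -0.89, and the tetraspanins Cd81 and Cd82 had -0.50 and -0.49. Of 27 tested other integrin ligands 19 were higher and 3 lower (median 1.23), beside 14.1% higher and 10.8% lower among all genes tested. Without the C/EBPβ libraries Lama1, Lama4, Tgfbi and Vwf would not have met the filter on low counts, nor would Cdh1 without the empty vector libraries. The direction of these genes was thus nearly fixed in advance. Of the 6 laminin chains in this list 4 were higher, with Lama1 at 44.5 and 41.6 CPM with C/EBPβ and 0.122 and 0 CPM with empty vector, and Lama4 at 11.8 and 12.2 CPM with C/EBPβ and 0.194 and 0.476 CPM with empty vector. Lamb1 and Lamc1 each rose by 0.37 on the log2 scale. The collagen genes of the list were all higher, Col1a1 by 2.76, Col1a2 by 1.32 and Col3a1 by 1.59. Lama5 had 217 and 277 CPM with C/EBPβ and 281 and 398 CPM with empty vector and did not pass (-0.46, adjusted p = 0.0894), nor did Lama2 (-0.27, adjusted p = 0.33). Emilin1, a ligand of α4 and α9 integrins, rose by 3.15, while Edil3 fell by 2.80 and Mfge8 by 0.28, both secreted RGD proteins; the third lower gene was Cdh1, given among the epithelial markers.

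**Figure D4:**
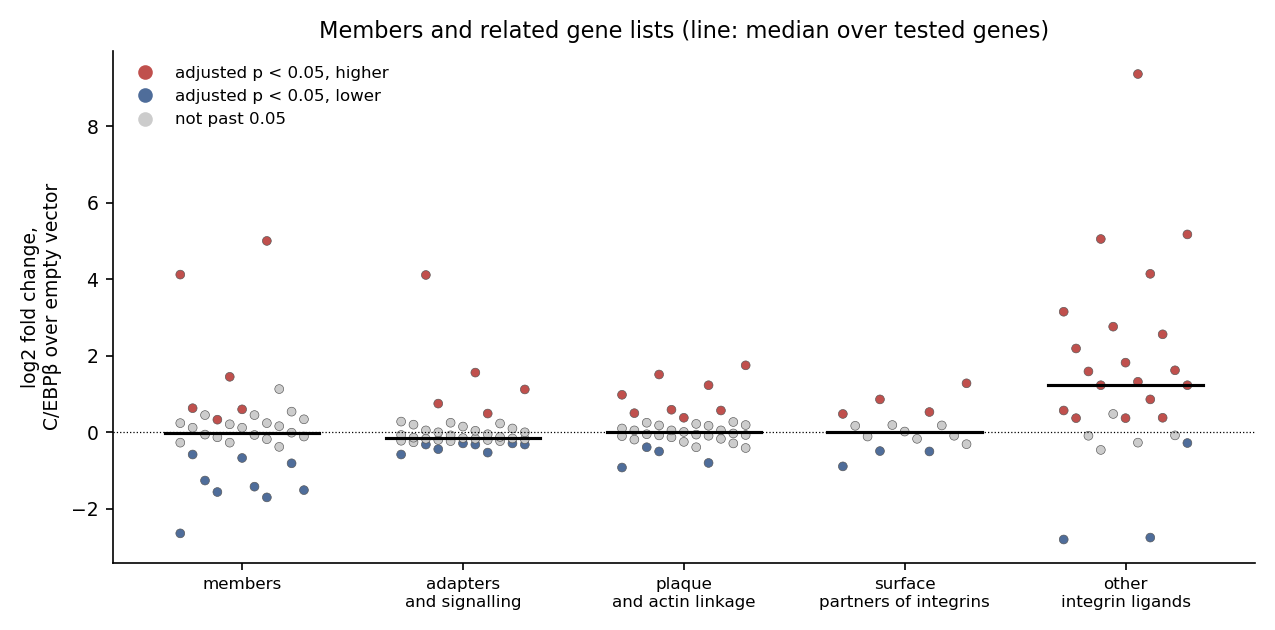
Log2 fold change (C/EBPβ over empty vector) of each tested gene in the 35 members and in 4 related lists, coloured by call, with a line at the median. The median lies at -0.01 for the members, between -0.14 and 0.02 for adapters, plaque genes and surface partners, and at 1.23 for other integrin ligands.

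The authors' deposited table of a comparison lists 39 of the 44 genes, with 10 at a positive and 10 at a negative log2 fold change below an adjusted p of 0.05. All 15 genes called here have the same sign and pass in the authors' deposited table. That comparison comes from the same series, so it is not an independent check. The values in the authors' deposited table were 4.69 for Itga1, 3.71 for Itga11, -1.45 for Itga7 and -2.54 for Itga4. Hspg2, Actn1, Itga8 and Itga9 passed with a positive value and Vcl with a negative value in the authors' deposited table. Itgam has a base mean of 7.39 in the authors' deposited table and 0 counts in the 4 libraries, so that table's values did not come from these 4 count columns alone.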

How the data were processed

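Whole-number counts of fragments per gene were deposited for each of the 4 libraries. They were made with featureCounts 1.5.1 in paired-end, reverse-stranded mode on GENCODE M12, per the file headers, while the submitters' processing notes name HISAT2 2.0.4, featureCounts 1.4.6, DESeq2 and build GRCm38. Reads that map to several places or genes were not counted at these settings. The authors' deposited table gives a base mean (signal), log2 fold changes with standard errors, a test statistic (score) and p-values, and it was described, not retested.

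Here, genes were filtered with filterByExpr (minimum count 10, minimum total 15) and compared with edgeR 4.0.16 in R 4.3.3 by its quasi-likelihood test with TMM scaling and no covariate. The SE is the log2 fold change divided by the square root of the F statistic. The code was tested on simulated data. Groups and replicate numbers came from the sample titles. TPM used the exonic lengths in the count files. CPM of single genes used TMM-scaled totals of the tested genes, and summed CPM of lists, ratios and floors used library totals. The genes and lists were chosen with earlier results of these data known. Values per library are given for called genes averaging at least 1 CPM and for uncalled genes averaging at least 50 CPM, and for some others named for their role after values were seen. From each related list, up to 3 called genes of lowest adjusted p averaging at least 1 CPM were named per direction. Cdh1, Col1a1, Col1a2, Col3a1, Lama2, Lama5, Lamb1, Lamc1, Tgfbi and Vwf were added after values were seen. Alternatives were DESeq2 1.42.0, other scalings and filters, a replicate block and each library left out. Symbols of 49326 of 49585 identifiers came from GENCODE M21 on the same build.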

Additional observations from a re-analysis of the deposited data

How the results depend on the processing

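The 15 called genes kept their direction and their call under RLE scaling, library totals only, DESeq2 and no filter on low counts. The TMM factors lay between 0.987 and 1.008, so the changes of scaling could alter little. The filter of at least 5 CPM in 2 libraries left Itga4 and Itga11 untested. With no filter 12 members were higher and the median of the tested members was 0.13. The added calls were Actn1, Hspg2, Itga8, Itga9, Itgal and Itgb2. Adjusted p values differ in scale between fits of the same edgeR test. For Itga6 they were 1.57e-04 in the main fit, 1.30e-47 with no filter and 2.03e-13 with a replicate block. The log2 fold changes there were -1.56, -1.55 and -1.57. Calls gained with no filter, a block or a library left out therefore cannot be set against the main calls. With DESeq2 the median was 0.11, over 38 tested members. With a library left out, between 2493 and 3462 genes were called in all, between 6 and 10 members were higher, between 9 and 11 lower, and the median lay between 0.01 and 0.11. Fermt2 and Tln2 were the members whose calls were lost there. Fn1 and Zyx, both uncalled, changed sign: Fn1 lay between -0.21 and 0.05 with a library left out, and Zyx between -0.07 and 0.05, with 0.00 under no filter and 0.01 under the stricter filter. The cause was not tested.

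The titles give both groups replicates 1 and 2, but no label ties equal numbers to a shared culture or batch. Deviations of same-numbered libraries had a correlation of 0.186 across genes. With the replicate number as a block 4536 genes were called in all, against 3759 without it, and 9 members were higher and 9 lower (median -0.01); Actn1, Hspg2 and Itgal were added. Over the 35 tested members, 314 of 343 values under an alternative stayed on their side of the threshold with the same sign. Among them are all 35 under RLE scaling and all 35 under library totals, where little could change. The 9 untested members had few or no counts, and the control levels of Itga1 and Itga11 rest on few.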
